A study of Mus musculus with 34 samples.

Results

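10 genes that mark the epithelium of the choroid plexus were followed in brain tissue of Myt1l heterozygous and wild-type mice: Ttr, Enpp2, Aqp1, Kcnj13, Clic6, Folr1, Prlr, Kl, Cldn2 and Otx2. They were found by symbol in the GENCODE M21 annotation, and 10 of 10 had a row among the 18548 genes of the deposited table. The genes were chosen by their known expression in this epithelium and by measured values of these libraries, in which they moved together and were very low in a few, so those patterns are described without a test. RNA of 3 brain regions was sequenced, and the animals were C57BL/6J males aged 56 days. Hippocampus gave 5 libraries of Myt1l heterozygotes (HT) and 6 of wild type (WT), striatum gave 6 HT and 6 WT, and prefrontal cortex (PFC) gave 5 HT and 6 WT, 34 in all. The labels name no treatment and do not describe the Myt1l allele, pooling of animals, or whether each library is a separate animal, so p-values measure the spread between libraries.

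The choroid plexus is a frond of capillaries and stroma covered by a single sheet of secretory epithelium that hangs into the brain ventricles. Its epithelium makes cerebrospinal fluid by moving ions and water, carries vitamins and hormones between blood and fluid, and seals the blood to fluid barrier with tight junctions. The lateral ventricle plexus lies against the hippocampus and the striatum, whereas the cortical plate does not border it. In a bulk library, fewer epithelial cells and less RNA per cell cannot be told apart.

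The proximal promoters are shown for 3 of the genes that moved together, a hormone co-receptor (Kl), a potassium channel (Kcnj13) and a tight junction pore (Cldn2). Their RefSeq start lies at or just before the GENCODE gene start. This also holds for a start of Prlr, which has several windows and is not shown. RefSeq windows (GRCm38.p6) were matched for 6 of the 10 genes, with 11 windows in all. Each sequence is the 250 bases before the transcript start, written 5′ to 3′ on the strand of the gene. Kl lies at chr5:150952357-150952606 on the plus strand, Kcnj13 at chr1:87394730-87394979 on the minus strand, and Cldn2 at chrX:139800558-139800807 on the plus strand. Capitals mark matches to any of the motifs searched.
Kl: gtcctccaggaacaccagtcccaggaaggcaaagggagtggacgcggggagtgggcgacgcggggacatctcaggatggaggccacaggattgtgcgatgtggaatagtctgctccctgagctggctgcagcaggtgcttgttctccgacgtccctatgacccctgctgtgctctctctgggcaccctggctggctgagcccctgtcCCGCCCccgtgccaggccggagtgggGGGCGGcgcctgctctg
Kcnj13: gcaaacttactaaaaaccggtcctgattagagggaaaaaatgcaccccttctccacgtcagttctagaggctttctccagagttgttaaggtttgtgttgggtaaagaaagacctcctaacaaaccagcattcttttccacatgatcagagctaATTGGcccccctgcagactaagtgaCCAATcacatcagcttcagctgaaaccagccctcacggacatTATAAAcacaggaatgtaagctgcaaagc
Cldn2: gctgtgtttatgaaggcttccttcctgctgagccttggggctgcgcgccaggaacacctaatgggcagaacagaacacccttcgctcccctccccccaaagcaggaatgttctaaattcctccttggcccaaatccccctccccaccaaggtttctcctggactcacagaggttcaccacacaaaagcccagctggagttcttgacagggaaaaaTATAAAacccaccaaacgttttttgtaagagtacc
The motifs were TATAAA (the box at which basal transcription factors assemble), CCAAT (bound by NF-Y), GGGCGG (Sp1 box), TAATCC (core bound by OTX proteins) and TGTTTAC (forkhead core), on both strands, and no match here overlapped another. The Kcnj13 and Cldn2 windows held a TATAAA beginning 29 and 35 bases before the start, and Kcnj13 also held CCAAT on either strand, 96 and 71 bases before it. The Kl window held GGGCGG on either strand, 43 and 17 bases before the start, and no TATAAA or CCAAT. Over 32851 windows of the same length, 12.4% held TATAAA, 33.8% CCAAT and 32.7% GGGCGG. The core TAATCC was in 6.25% of windows and, among these genes, in 1 window of Otx2. The core TGTTTAC was in 3.17% and, among these genes, in 1 window of Prlr. The 3 printed windows share no searched motif beyond the TATAAA of Kcnj13 and Cldn2, and a match is only a description of the letters.

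In the GENCODE M21 annotation (GRCm38), Ttr (ENSMUSG00000061808) lies at chr18:20665280-20674321, Enpp2 (ENSMUSG00000022425) at chr15:54838901-54952892 and Prlr (ENSMUSG00000005268) at chr15:10177238-10349180. Aqp1 (ENSMUSG00000004655) lies at chr6:55336432-55348555, Kcnj13 (ENSMUSG00000079436) at chr1:87386363-87394729 and Clic6 (ENSMUSG00000022949) at chr16:92485736-92541243. Folr1 (ENSMUSG00000001827) lies at chr7:101858331-101870788 and Kl (ENSMUSG00000058488) at chr5:150952607-150993817. Cldn2 (ENSMUSG00000047230) lies at chrX:139800828-139811386 and Otx2 (ENSMUSG00000021848) at chr14:48657677-48673819.

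The deposited values are read counts scaled between libraries, called normalized counts here. They summed to 25786000 to 29799000 per library, and the depth before scaling is not given in the sources used here. Tissue markers followed the labels: the summed level of 8 striatal projection neuron genes was 40992 to 59966 in HT and 48279 to 59803 in WT striatum and at most 6947 in the other regions. Myt1l itself was at 6896 ± 385 normalized counts in HT and 6216 ± 594 in WT hippocampus (SD, n = 5 and 6), and checks no label, since the allele is not described. The column names carry a code that recurs across regions, and the code 31-67M stands on HT libraries of hippocampus and striatum and on a WT library of PFC. The labels were followed.

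In these genes 3 libraries stood apart: hippocampus HT replicate 1, hippocampus WT replicate 6 and striatum HT replicate 1. Each had less than 10% of the median Ttr of its region. Ttr encodes transthyretin, the carrier of thyroid hormone and retinol-binding protein that the epithelium secretes into the fluid. Ttr was at 1591, 20035, 68803, 78192 and 61115 normalized counts in the 5 HT hippocampal libraries, in replicate order, against a lowest, median and highest of 1298, 34805 and 59896 in the 6 WT libraries. In striatum it was at 539, 36956 and 78640 in HT, against 20131, 37662 and 81544 in WT. In PFC it was at 43.5, 14.6, 10.1, 14.9 and 10.97 in HT, against 15.8, 41.6 and 69.5 in WT. The HT and WT ranges overlapped in every region, and the lowest hippocampal or striatal library still held more Ttr than the highest PFC library. The share of all normalized counts that fell on the 10 genes was 0.0286% to 0.4995% in HT and 0.0253% to 0.370% in WT hippocampus, and 0.0311% to 0.526% in HT and 0.149% to 0.539% in WT striatum. In PFC that share was 0.0223% to 0.0268% in HT and 0.0217% to 0.0288% in WT.

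**Figure D1:**
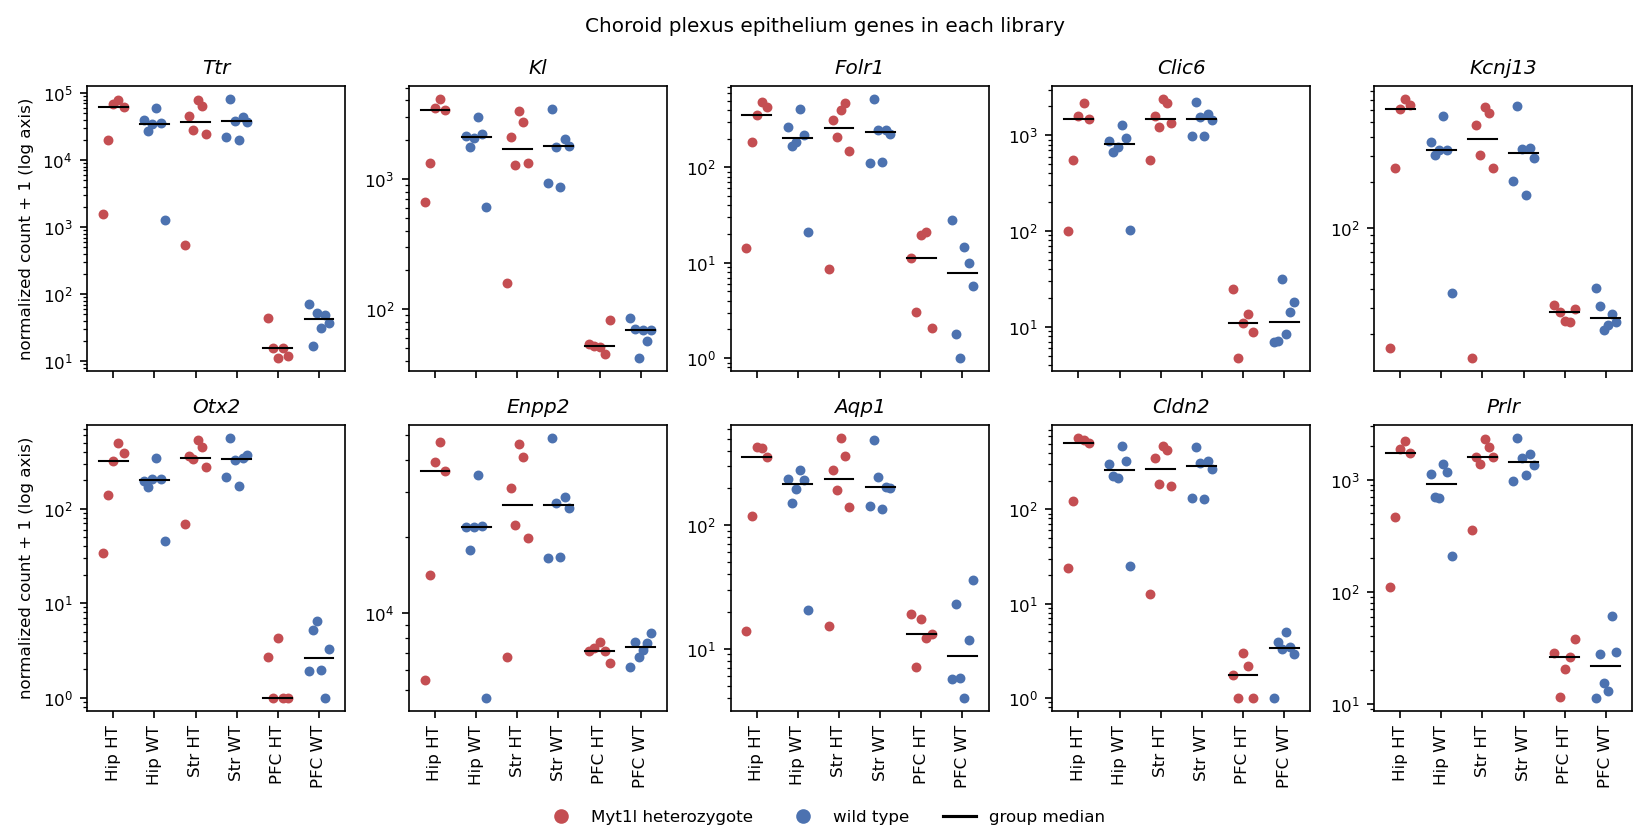
Normalized count plus 1 (log axis) of each of the 10 genes in each library, with HT (red) left of WT (blue) for hippocampus (Hip), striatum (Str) and PFC, and a line at the group median. 1 HT and 1 WT hippocampal library and 1 HT striatal library lie far below the rest of their region, and PFC is low except for Enpp2.

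Enpp2, which encodes autotaxin, the secreted enzyme that makes lysophosphatidic acid, was the one of the 10 with a high level in PFC. It was at 5450, 14152, 39288, 47156 and 36227 normalized counts in HT hippocampus, against 4660, 21814 and 34865 (lowest, median, highest) in WT. Striatum held 6749, 26606 and 46351 in HT, against 16482, 26505 and 48598 in WT. PFC held 6396 to 7678 in HT and 6136 to 8340 in WT. Both low hippocampal libraries therefore lay below every PFC library in Enpp2, and the low striatal library lay inside the PFC range. Oligodendrocytes are a known second source of Enpp2, and the summed level of 10 myelin and oligodendrocyte genes was 136230 to 180448 in HT and 147963 to 193485 in WT hippocampus, with 174983 in the low HT and 147963 in the low WT library. The part of that source in these Enpp2 values was not tested.

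The water and ion transport genes were low in the same libraries. Aqp1, the water channel of the fluid-facing membrane, was at 12.9, 117, 427, 419 and 352 normalized counts in HT hippocampus, against 19.6, 212 and 279.5 in WT. Its striatal values were 14.1, 235 and 499.8 in HT, against 134, 200.3 and 489.6 in WT. PFC held 6.18 to 17.98 in HT and 3.03 to 34.9 in WT, so the low hippocampal and striatal libraries lay within the PFC range of Aqp1. Kcnj13, the inward rectifier potassium channel Kir7.1, was at 15.2, 249, 606, 709 and 646 in HT hippocampus, against 36.5, 326 and 545 in WT. In striatum it was at 12.9, 389 and 631 in HT, against 164, 310.0 and 638 in WT. In the low HT libraries of hippocampus and striatum Kcnj13 lay below its PFC range of 23.2 to 30.3 in HT and 20.3 to 39.5 in WT. Kcnj13 shares 623 exon bases with Gigyf2 on the opposite strand, and whether strand was used in counting is not given in the sources used here, so its low values are uncertain. The same holds for Otx2 and Enpp2, which share 154 and 345 exon bases with Otx2os1 and Gm26684 on the opposite strand. On the same strand, Otx2 shares 168 exon bases with Gm49154 and Prlr 203 with Gm21973. These values are uncertain whether or not strand was used. Clic6, a member of the chloride intracellular channel family, was at 100.4, 551, 1584, 2189 and 1474 in HT hippocampus, against 100.9, 811 and 1281 in WT. In striatum Clic6 was at 547, 1464 and 2396 in HT, against 978, 1496 and 2250 in WT, so its low striatal library lay above both low hippocampal ones. PFC held 3.71 to 24.1 of Clic6 in HT and 5.94 to 30.5 in WT, below every hippocampal and striatal library.

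The receptors were low in the same libraries, each to its own degree. Folr1, the folate receptor that takes folate into the fluid, was at 13.4, 185, 355, 488 and 425 normalized counts in HT hippocampus, against 20.0, 201 and 403 in WT. In striatum it was at 7.50, 257 and 466.4 in HT, against 111, 232 and 519 in WT. In PFC it was at 1.09 to 19.9 in HT and 0 to 27.3 in WT, which takes in the low HT libraries of both other regions and the low WT hippocampal one. Prlr, the prolactin receptor, was at 111, 465.5, 1872, 2217 and 1719 in HT hippocampus, against 209, 914 and 1372 in WT, and at 357, 1589 and 2288 in HT striatum, against 977, 1441 and 2327 in WT. Kl encodes klotho, the co-receptor of fibroblast growth factor 23, and is known in hippocampal neurons as well. Kl was at 668, 1333, 3526, 4106 and 3357 in HT hippocampus, against 613, 2093 and 3005 in WT, and at 157, 1698 and 3327 in HT striatum, against 870, 1784 and 3430 in WT. The low striatal library thus held less Kl than either low hippocampal library, the reverse of Clic6 and Prlr. PFC held 44.5 to 81.9 of Kl in HT and 41.1 to 84.7 in WT, and 10.5 to 37.1 of Prlr in HT and 10.4 to 59.6 in WT, below every library of the other regions. For each receptor the HT and WT ranges overlapped in all 3 regions.

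Cldn2, the claudin that forms cation and water pores in leaky tight junctions, was at 22.8, 121, 565, 540.3 and 510.5 normalized counts in HT hippocampus, against 24.0, 262 and 474 in WT. In striatum it was at 11.7, 267 and 470.3 in HT, against 128, 288 and 453 in WT. Otx2, a homeobox factor needed to form the choroid plexus, was at 33.4, 139, 321, 496 and 384 in HT hippocampus, against 44.1, 200.01 and 339.7 in WT. In striatum Otx2 was at 67.7, 345 and 532 in HT, against 173, 335 and 553 in WT, and the HT and WT ranges of both genes overlapped in each region. In PFC, Otx2 was listed at 0 in 3 of 5 HT and 1 of 6 WT libraries, Cldn2 in 2 of 5 HT and 1 of 6 WT, and Folr1 in 0 of 5 HT and 1 of 6 WT. The highest PFC value was 5.43 for Otx2 and 3.94 for Cldn2, so these were the genes nearest to absent there.

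Per kilobase of exon, the order of the genes was headed by Ttr and Enpp2 in hippocampus and striatum, with mean levels of 32729 and 4172 normalized counts per kb over 11 hippocampal libraries and 34096 and 4767 over 12 striatal ones. The next were Kcnj13 (296), Clic6 (244) and Kl (241) in hippocampus and Clic6 (386), Kcnj13 (276) and Kl (194) in striatum. Otx2 was last in both, at 54.5 and 78.8 per kb. In PFC, Enpp2 (1248 per kb) came before Ttr (26.5) and Kcnj13 (21.0). In hippocampus and striatum, neighbours from the third place down differed by less than the SD of the higher one over libraries, apart from Kl over Folr1 in hippocampus.

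The low libraries can be set against the median of the other libraries of their region, 9 in hippocampus and 11 in striatum. Ttr stood at 4.01% of that median in hippocampus HT replicate 1, at 1.42% in striatum HT replicate 1 and at 3.27% in hippocampus WT replicate 6. Folr1 was at 5.07%, 3.08% and 7.56% in the same 3 libraries, Kcnj13 at 4.11%, 3.91% and 9.86%, and Cldn2 at 6.94%, 3.82% and 7.31%. Aqp1 was at 5.48%, 7.04% and 8.30%. Enpp2 kept 24.8%, 24.99% and 21.2%, and Otx2 kept 16.3%, 19.6% and 21.6%. Kl kept 30.1% and 27.6% in the HT and WT hippocampal libraries and 8.72% in the HT striatal one. Clic6 kept 10.7% and 10.8% in hippocampus, HT and WT, and 35.3% in striatum HT. Prlr kept 9.44% and 17.8% in hippocampus, HT and WT, and 22.6% in striatum HT. All 3 libraries were thus below 10% for Ttr, Folr1, Kcnj13, Cldn2 and Aqp1, while Kl was relatively higher in the hippocampal pair and Clic6 and Prlr in the striatal library.

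**Figure D2:**
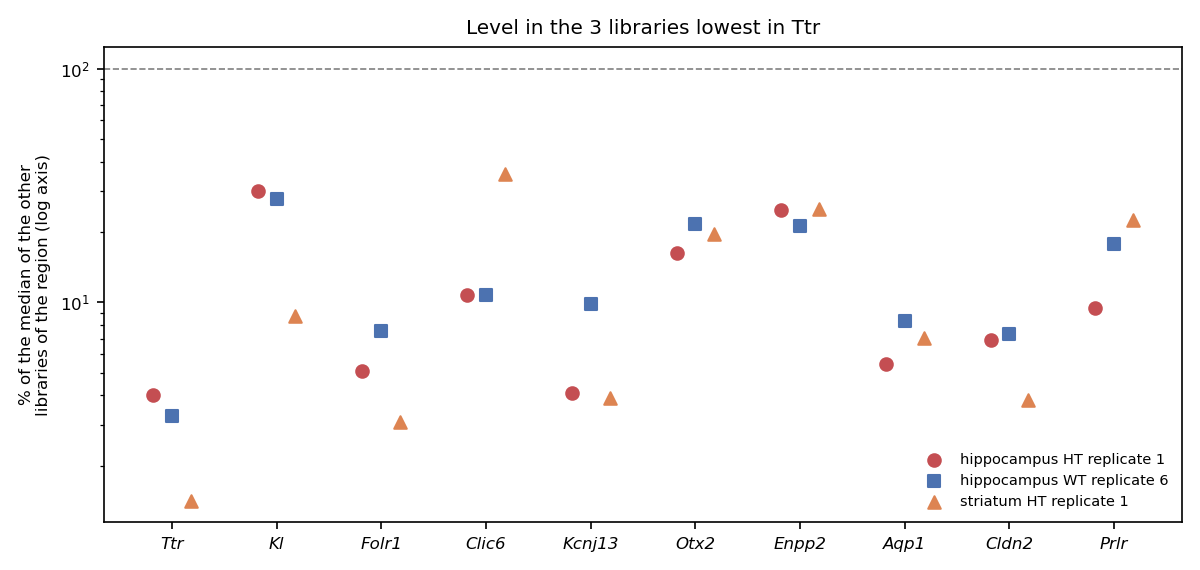
Level of each gene in the 3 libraries lowest in Ttr, as a percentage (log axis) of the median of the other libraries of the same region, marked by the dashed line at 100. Ttr lies at 1.42% to 4.01% and Enpp2 at 21.2% to 24.99%. Kl lies at 30.1% and 27.6% in the hippocampal libraries and 8.72% in the striatal one. Clic6 lies at 10.7% and 10.8% against 35.3%, and Prlr at 9.44% and 17.8% against 22.6%. Ttr, Folr1, Kcnj13 and Cldn2 also lie higher in both hippocampal libraries than in the striatal one.

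The order of the libraries was shared between the genes, which is a description since the genes were picked for it. In hippocampus, HT replicate 1 was the lowest library for 7 of the 10 genes and WT replicate 6 for the other 3, and HT replicate 4 was the highest for 8. In striatum, HT replicate 1 was the lowest for 10 of 10, and WT replicate 2 was the highest for 7 and HT replicate 4 for 3. The Pearson correlation of the log2 values over the 45 gene pairs had a median of 0.980 in hippocampus (0.948 to 0.998, 11 libraries) and 0.975 in striatum (0.909 to 0.995, 12 libraries). Without the low libraries the median was 0.966 in hippocampus (0.881 to 0.995, 9 libraries) and 0.962 in striatum (0.883 to 0.996, 11 libraries). In PFC the median was 0.0704 (-0.619 to 0.633, 11 libraries). The libraries of a pair of genes are the same, so the pairs share their scaling and depth.

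A straight line of each gene on Ttr within a region gave a slope, the rise of the gene per 1000 Ttr, and an intercept, its level where Ttr would be 0. For Enpp2 the slope was 531 (SE 15.5) in hippocampus and 519 (SE 11.7) in striatum, for Kl 44.1 (SE 1.35) and 40.6 (SE 1.13), and for Folr1 5.91 (SE 0.449) and 6.06 (SE 0.499). The hippocampal slope over the striatal slope was 0.919 to 1.31 over the 9 genes, highest for Cldn2 (7.60, SE 0.477, and 5.801, SE 0.445) and next for Prlr (26.1, SE 1.87, and 21.5, SE 2.28). Kl had an intercept of 538 (SE 62.1) in hippocampus and 167 (SE 52.9) in striatum. Clic6 had 21.5 (SE 73.1) in hippocampus and 603 (SE 63.1) in striatum, Prlr 45.4 (SE 85.8) and 639 (SE 106), and Otx2 22.8 (SE 19.6) and 106 (SE 20.8). Enpp2 had 3515 (SE 711) in hippocampus and 6558 (SE 544) in striatum, beside a PFC mean of 7211 ± 630 (SD, n = 11). The lines accounted for 0.899 to 0.995 of the variance. The hippocampal intercepts moved and had larger errors without the 2 low libraries, where Enpp2 had 2337 (SE 1124), Otx2 10.3 (SE 34.3), Clic6 -46.3 (SE 126), Prlr -71.7 (SE 140.1) and Kl 479 (SE 107). In striatum without HT replicate 1 they were 6602 (SE 699) for Enpp2, 127 (SE 24.0) for Otx2, 636 (SE 78.8) for Clic6, 784 (SE 107) for Prlr and 183 (SE 67.3) for Kl. Differences of slope and intercept between regions were not tested, and with or without these libraries the fitted intercept was higher in hippocampus for Kl and higher in striatum for Clic6, Prlr, Otx2 and Enpp2.

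**Figure D3:**
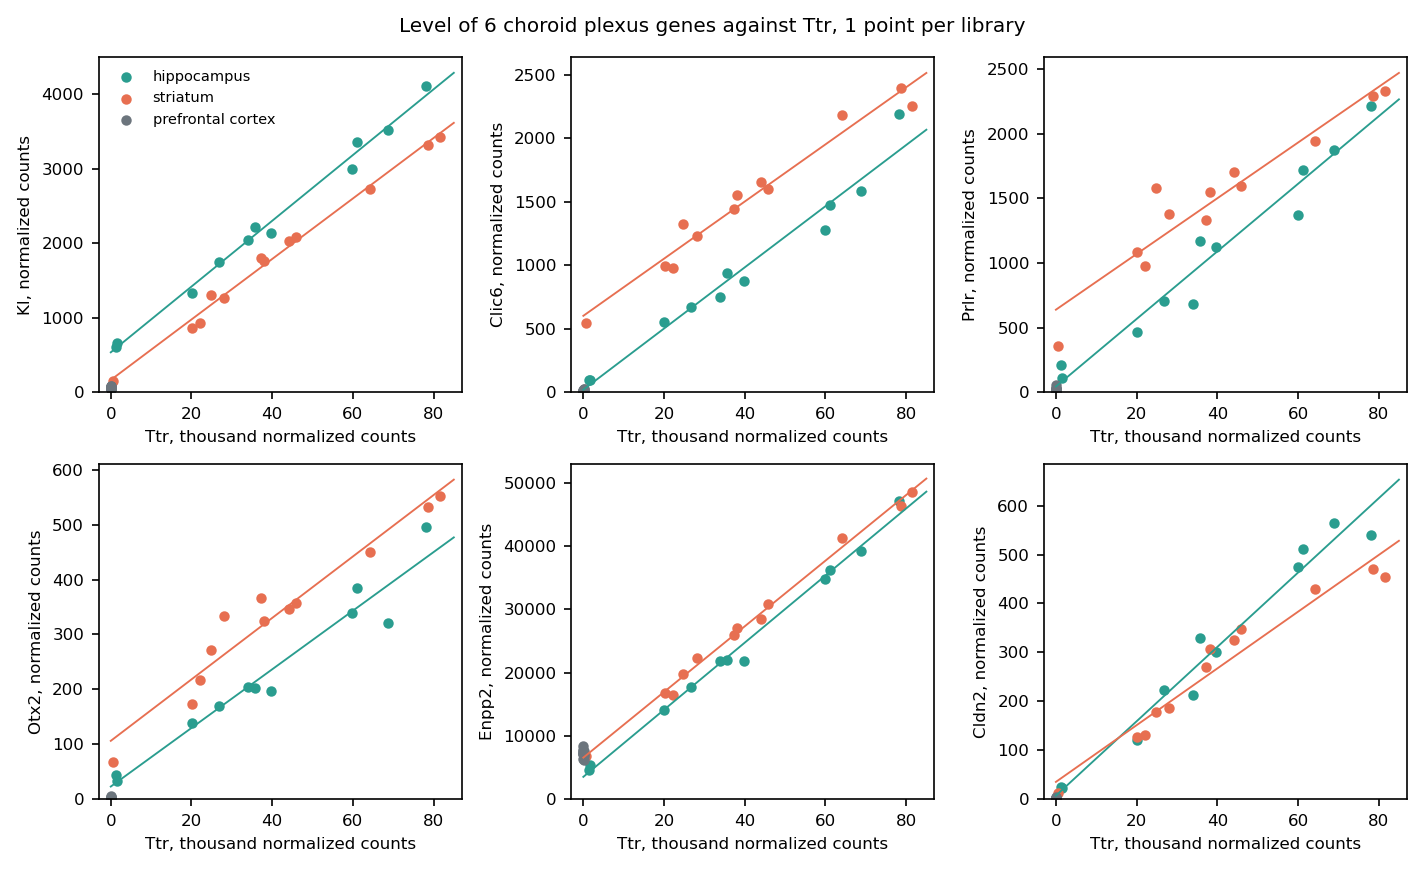
Level of 6 genes against Ttr, both in normalized counts (Ttr divided by 1000), 1 point per library, with the fitted line of hippocampus (green) and striatum (orange) and PFC in grey. The lines of both regions rise with Ttr, with the striatal line above the hippocampal one for Clic6, Prlr, Otx2 and Enpp2 and below it for Kl.

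The genotype comparison asked whether the HT mice differed from WT in each region. None of the 10 genes passed the threshold (limma on log2(value + 1), Benjamini-Hochberg adjusted p under 0.05 over all genes) in hippocampus or striatum, nor did any of the 7 tested in PFC. Folr1, Otx2 and Cldn2 had a mean below 10 in PFC and were not tested there. The share of all genes past the threshold was 0.00% in hippocampus, 0.00% in striatum and 0.00% in PFC, of 16820, 17054 and 16667 tested. At an unadjusted p under 0.05 the shares were 6.81%, 5.89% and 5.00%, and among the 10 genes Ttr in PFC was the one below it. No gene of the 10 had HT and WT groups that did not overlap, in any region, where 0.321% of all genes were higher and 0.357% lower without overlap in hippocampus, 0.141% and 0.258% in striatum, and 0.198% and 0.264% in PFC.

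In hippocampus the log2 difference of HT minus WT was above 0 for 10 of 10 genes, between 0.04 for Kcnj13 and 0.34 for Clic6, with a median of 0.22 where all genes had -0.0014. For Ttr it was 0.24 (SE 1.31, 95% interval -2.72 to 3.19; limma adjusted p = 0.989), for Enpp2 0.32 (SE 0.69; adjusted p = 0.964) and for Kl 0.26 (SE 0.57; adjusted p = 0.966). The residual spread of the 10 genes lay at the 98.1 to 99.7 percentile of all genes tested. The genes were chosen with the low libraries known, so this rank restates that choice. Without HT replicate 1 and WT replicate 6 it lay at the 90.8 (Kcnj13) to 97.0 (Cldn2) percentile. Of the hippocampal libraries, HT replicate 1 and WT replicate 6 moved the log2 differences most when left out. Without HT replicate 1, Ttr had a difference of 1.23, and without WT replicate 6 it had -0.58 and 10 of 10 genes turned below 0. Without both, an alternative chosen after seeing the data, the differences were 0.33 (Cldn2) to 0.56 (Clic6), with Ttr at 0.42 (SE 0.45, interval -0.63 to 1.48; adjusted p = 0.853), and again 0 of 10 passed, against 0.0356% of all genes (7.94% at an unadjusted p under 0.05). In those 9 libraries Ttr was 20035 to 78192 in the 4 HT libraries and 26726 to 59896 in the 5 WT libraries. Of the 11 fits that left out 1 hippocampal library, the sign turned in 4 for Ttr, Folr1, Kcnj13, Aqp1, Cldn2 and Prlr. It turned in 3 for Otx2, in 2 for Clic6 and in 1 for Enpp2 and Kl.

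In striatum the log2 difference was below 0 for 10 of 10 genes, between -0.02 for Clic6 and -0.78 for Ttr, with a median of -0.32. For Ttr it had an SE of 1.12 (interval -3.27 to 1.70; limma adjusted p = 0.949), for Kl it was -0.31 (SE 0.70; adjusted p = 0.973) and for Prlr -0.11 (SE 0.42; adjusted p = 0.982). Leaving out HT replicate 1 turned 10 of 10 above 0, at 0.25 (Clic6) to 0.49 (Kcnj13), with Ttr at 0.27 (SE 0.43, interval -0.68 to 1.22; adjusted p = 0.888), and 0 of 10 passed, against 0.00% of all genes (7.36% at an unadjusted p under 0.05). For each of the 10 genes, the sign in striatum thus turned without that 1 library. Its code, 31-67M, also stands on hippocampus HT replicate 1 and on a WT library of PFC. Of the 12 fits that left out 1 striatal library, the sign turned in 5 for Clic6 and in 2 for Enpp2, Otx2 and Prlr. For the other genes it turned in 1. Within the libraries whose code begins with 35, Ttr had a difference of 0.31 in striatum (SE 0.50; adjusted p = 0.894), 0.35 in hippocampus (SE 0.59; adjusted p = 0.957) and -1.0047 in PFC (SE 0.50; adjusted p = 0.954), and libraries with other codes were too few in a group for a value of their own. Because the genes move together, 10 genes on one side of 0 are not 10 separate observations.

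**Figure D4:**
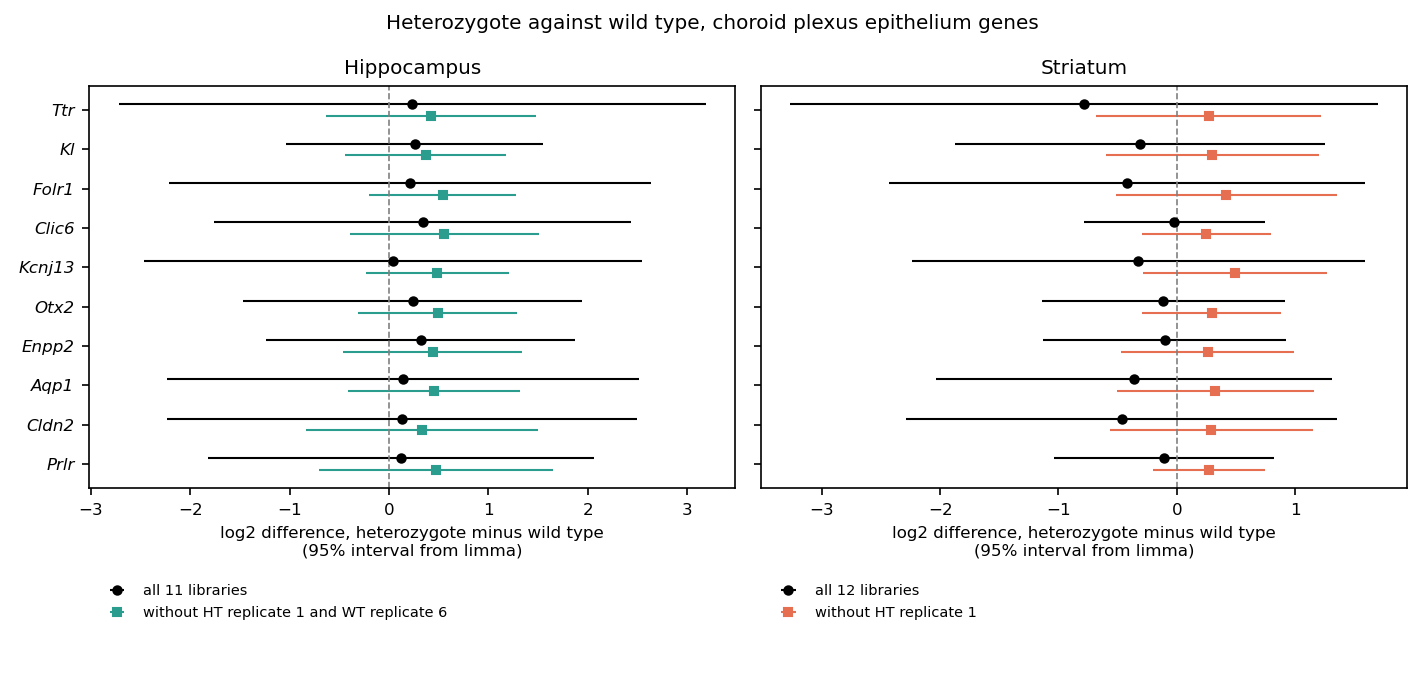
Log2 difference of HT minus WT with its 95% interval for each gene in hippocampus (left) and striatum (right), with all libraries (black) and without the low libraries (coloured). All intervals contain 0, and in striatum each point moves from below 0 to above 0 when HT replicate 1 is left out.

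In PFC, Ttr averaged 18.8 ± 13.9 normalized counts in HT and 41.9 ± 18.6 in WT (SD, n = 5 and 6). The log2 difference was -1.19 (SE 0.39; limma adjusted p = 0.977). Ttr was below the WT median in 4 of 5 HT libraries, and leaving out 1 library at a time gave -1.53 to -1.02. The other 6 genes tested had differences from -0.20 (Kl, SE 0.20) to 0.32 (Aqp1, SE 0.53). Whether the genotype effect itself varied by region was asked with interaction terms in one fit of 34 libraries. That fit did not use the column code as a block, although codes recur across regions. For Ttr the difference of the HT minus WT effects was 1.02 (SE 1.46) for hippocampus minus striatum, 1.43 (SE 1.499) for hippocampus minus PFC and 0.41 (SE 1.46) for striatum minus PFC. None of the 10 genes passed in limma, with adjusted p of 0.999 or above, beside 0.00% of all genes in each of the 3 contrasts and 3.69%, 3.76% and 3.59% at an unadjusted p under 0.05.

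Among WT libraries, the regions could be compared with the column code as a random block. In WT hippocampus over WT PFC, 10 of 10 genes were higher, where 23.9% of all 17017 genes tested were. Ttr had a log2 difference of 9.11 (SE 0.75; limma adjusted p = 4.22e-08), Cldn2 6.06 (SE 0.58; 8.56e-08), Otx2 5.94 (SE 0.46; 2.26e-09) and Clic6 5.65 (SE 0.53; 1.75e-07). Prlr had 5.10 (SE 0.46), Kl 4.79 (SE 0.37), Folr1 4.74 (SE 0.81), Aqp1 3.81 (SE 0.64), Kcnj13 3.21 (SE 0.50) and Enpp2 1.29 (SE 0.38; adjusted p = 0.0114). The groups did not overlap for 6 of 10 genes, against 13.7% of all genes, and WT replicate 6 of hippocampus lay within the WT PFC range for Folr1, Kcnj13 and Aqp1 and below it for Enpp2. In WT striatum over WT PFC, 10 of 10 were higher and 10 of 10 did not overlap, against 29.2% and 17.5% of all genes. There Ttr had 9.86 (SE 0.75), Clic6 6.86 (SE 0.53), Otx2 6.83 (SE 0.46) and Enpp2 1.81 (SE 0.38; limma adjusted p = 7.32e-04). The genes were chosen with their levels in these libraries known, so these counts, differences and p-values are descriptions and no independent evidence.

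In WT hippocampus over WT striatum, 0 of 10 genes passed, where 48.0% of all genes did in either direction. The log2 difference was below 0 for 9 of 10 genes. Clic6 had -1.20 (SE 0.53, interval -2.33 to -0.07; limma adjusted p = 0.0747), Prlr -0.93 (SE 0.46; adjusted p = 0.114), Otx2 -0.89 (SE 0.46; adjusted p = 0.123) and Ttr -0.75 (SE 0.74; adjusted p = 0.440). Kl alone was above 0, at 0.13 (SE 0.37; adjusted p = 0.796). With a pseudocount of 10, Clic6 and Otx2 passed at -1.18 and -0.84, and without hippocampus WT replicate 4 Clic6 passed at -1.41. Without hippocampus WT replicate 6 the Ttr difference was 0.06, so its sign rested on that library.

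Other genes of the same epithelium were read from a list of 29, of which 28 were in the table and 27 tested between regions. In WT hippocampus over PFC 24 rose and 0 fell, in WT striatum over PFC 26 rose and 0 fell, and in WT hippocampus over striatum 0 rose and 4 fell, with medians of 1.67, 1.92 and -0.43. Of all genes tested, 22.9% were lower in WT hippocampus over PFC and 27.8% in WT striatum over PFC, and in WT hippocampus over striatum 23.9% were higher and 24.1% lower. The list was chosen with earlier results of these data known, so its counts are no independent evidence. None of 28 passed for HT against WT in hippocampus (25 above 0) or striatum (7 above 0, and 25 without HT replicate 1). By mean level its leading genes were Strip2, Cab39l, Car12, Ace, Igfbp2 and Sulf1. Ace, the angiotensin-converting enzyme, was at 1427 ± 806 in HT and 1006 ± 377 in WT hippocampus, and at 356 in hippocampus HT replicate 1 and 322 in WT replicate 6. Sulf1, a sulfatase of heparan sulfate chains, was at 858 ± 485 in HT and 619 ± 239 in WT hippocampus, and at 134 and 204 in those 2 libraries. Cab39l was at 633 and 674 in the low HT and WT hippocampal libraries, where the group means were 1372 ± 562 in HT and 1094 ± 324 in WT. Car12, a membrane carbonic anhydrase, was at 1322 and 1185 in them, with group means of 1642 ± 311 in HT and 1417 ± 156 in WT. Igfbp2, an insulin-like growth factor binding protein, was at 497 and 599 in them, with means of 1148 ± 488 and 961 ± 213. Strip2 was at 989 and 934 there, with means of 1206 ± 268 in HT and 1183 ± 167 in WT hippocampus, and the low WT library was the lowest of its group. In striatum HT replicate 1 Strip2 was at 3553, against means of 3345 ± 517 in HT and 3579 ± 343 in WT striatum. In the same striatal library Ace was at 678, Sulf1 at 539, Cab39l at 635 and Igfbp2 at 322, each the lowest of HT striatum. Car12 was at 1262 there, above the HT striatal lowest of 1151. So Ace, Sulf1, Cab39l and Igfbp2 were lowest of their groups in both low hippocampal libraries and in the low striatal one. In hippocampus Strip2 and Car12 were lowest in the low WT library only.

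The lists of neighbouring cell types were read in the same libraries. Ependymal cells, the ciliated lining of the ventricles, were read from 16 genes, whose summed level was 2106 to 3171 in HT and 1873 to 2374 in WT hippocampus, and 2862 to 4813 in HT and 3006 to 4848 in WT striatum. The low libraries held 2106 (hippocampus HT), 1873 (hippocampus WT) and 2862 (striatum HT), each the lowest of its group. Meningeal fibroblast genes, 11 in the list, summed to 5650 in hippocampus HT replicate 1, 7080 in hippocampus WT replicate 6 and 2918 in striatum HT replicate 1, in group ranges of 5650 to 12066, 6677 to 10005 and 2918 to 5910. In striatum 0 of 11 meningeal genes lay above 0 in HT against WT (median -0.43, 0 past the threshold), and 1 of 11 without HT replicate 1. Their summed median was 3963 in HT and 4972 in WT striatum, 8943 and 7387 in hippocampus, and 4390 and 4108 in PFC. It was thus higher in HT in hippocampus and PFC, and nothing is read from the striatal count. Endothelial and mural genes summed to 9567 to 11303 in HT and 9606 to 10823 in WT hippocampus, and the low libraries stood at 10068 (HT) and 10264 (WT). Blood cell genes summed to 3493 and 4539 in the low HT and WT hippocampal libraries and 3449 in the low HT striatal library, in ranges of 3493 to 5572 in HT and 3930 to 5404 in WT hippocampus and 3449 to 6009 in HT and 3361 to 5148 in WT striatum. They were the lowest of their group in both low HT libraries, and not in the low WT one. Cortical projection neuron genes summed to 11254 in striatum HT replicate 1, in a range of 2299 to 11254 in HT and 2393 to 12224 in WT striatum. Thalamus and habenula genes, 9 measured, summed to 2949 and 2773 in the low HT and WT hippocampal libraries and 7996 in the low striatal one, in ranges of 2949 to 5080, 2773 to 3456 and 7665 to 11804 (HT striatum), with Gbx2 at 0 in at least 1 hippocampal library of each genotype. Their part in the levels of the 10 genes was not tested.

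**Figure D5:**
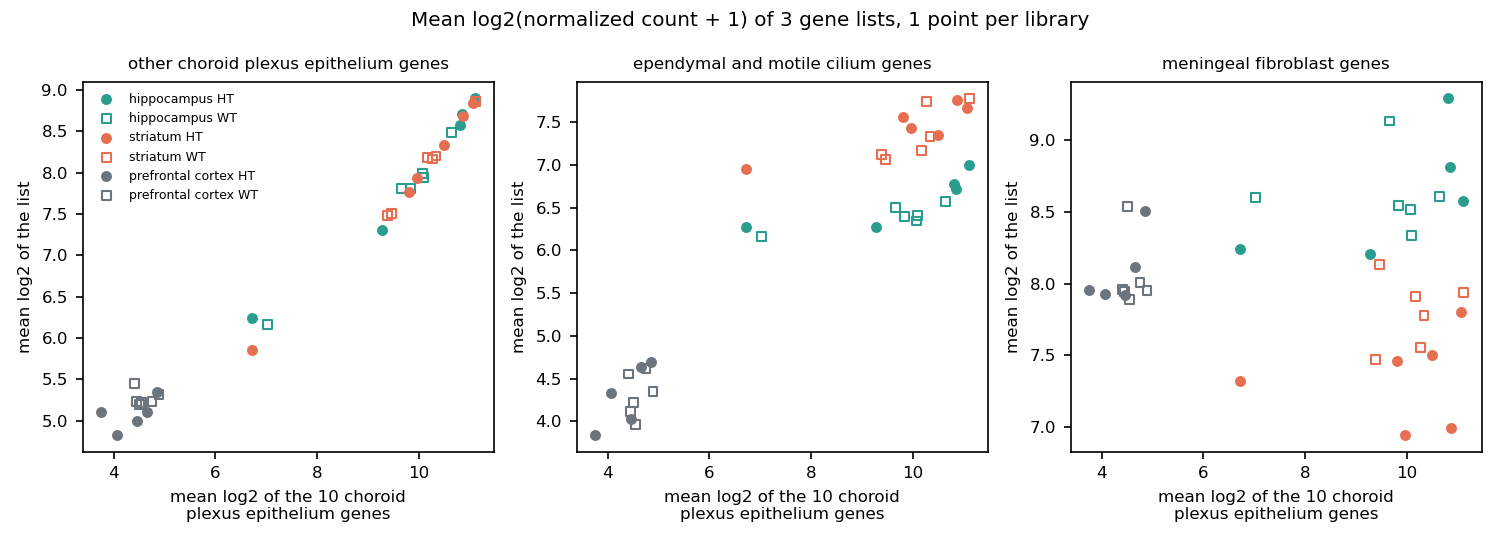
Mean log2(normalized count + 1) of 3 gene lists against that of the 10 genes, 1 point per library, HT filled and WT open, coloured by region. Other choroid plexus genes are low in the 3 libraries where the 10 genes are low, and the ependymal and meningeal lists are shown against the same horizontal axis.

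The remaining lists place the genes in their pathways. Of 12 genes of fluid secretion and ion transport, 9 rose and 1 fell in WT hippocampus over PFC, and 8 rose and 3 fell in WT striatum over PFC. Of all genes tested, 23.9% rose and 22.9% fell in the hippocampal contrast, and 29.2% rose and 27.8% fell in the striatal one. Among its abundant genes were Atp1b1, a subunit of the sodium pump, and Slc4a10, a bicarbonate transporter. Atp1b1 rose by 0.28 (SE 0.03) on the log2 scale in WT hippocampus over PFC. Atp1b1 was at 43279 ± 1725 in HT and 43902 ± 1427 in WT hippocampus, and at 44741 and 45652 in the low HT and WT libraries. Of 9 carriers of thyroid hormone, retinoid, folate and related vitamins, 4 rose and 2 fell in hippocampus over PFC, and 2 rose and 3 fell in striatum over PFC, and beside the shares of all genes nothing is read from these counts. Slc23a2, a vitamin C transporter, fell by 0.38 (SE 0.05) on the log2 scale in both contrasts, and the thyroid hormone transporter Slco1c1 had -0.19 (SE 0.08; adjusted p = 0.0712) in hippocampus over PFC. Of 7 tight junction genes 6 were tested, and 2 rose and 0 fell in hippocampus over PFC and 4 rose and 1 fell in striatum over PFC. Ocln, which encodes occludin, rose by 0.67 (SE 0.11) in hippocampus over PFC, while the scaffold gene Tjp1 had -0.05 (SE 0.05). Of 9 measured genes of prolactin receptor and klotho signalling, 2 rose and 4 fell in hippocampus over PFC and 5 rose and 3 fell in striatum over PFC, again beside 23.9% and 29.2% of all genes that rose. Fgfr1, the receptor that klotho binds, rose by 1.15 (SE 0.05) in hippocampus over PFC, the target Egr1 fell by 1.47 (SE 0.11), and Fgfr3 had -0.08 (SE 0.08). None of these 4 lists had a gene past the threshold in HT against WT in hippocampus, striatum or PFC, beside 0.00% of all genes.

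Outside the 10 genes, those whose log2 values followed the mean of the 10 most closely over the 34 libraries, after the mean of each region was subtracted, were F5 (r = 0.970), 1500015O10Rik (0.963), Tmem72 (0.952), Col8a1 (0.950), Cldn1 (0.945), Kcne2 (0.940), 2900040C04Rik (0.934), Ace (0.933), Trpm3 (0.933) and 4933429O19Rik (0.931). The 10 genes themselves ranked 2 to 51 of 17051 on this measure, Enpp2 highest and Folr1 lowest, and each of them enters the mean. F5, coagulation factor V, was at 62.2, 1575 and 2018 (lowest, median, highest) in HT hippocampus and 74.5, 888 and 1445 in WT, and at 45.1, 977 and 1659 in HT striatum and 418, 955 and 1781 in WT. Kcne2, a potassium channel subunit, was listed at 0 in striatum HT replicate 1, where the WT striatal range was 129 to 523. Trpm3, a cation channel that hosts a microRNA gene, kept 2926, 3119 and 2293 in hippocampus HT replicate 1, hippocampus WT replicate 6 and striatum HT replicate 1, with a PFC range of 1295 to 1654 in HT and 1193 to 1426 in WT. F5, 1500015O10Rik, Tmem72, Col8a1, Kcne2 and Ace were on the list of other choroid plexus genes as well.

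Ttr in hippocampus and striatum was compared between libraries of the same code, which the labels do not tie to an animal. The code 31-67M was the lowest in striatum and next to lowest in hippocampus, at 539 and 1591 normalized counts. The code 37-10M, a WT, held 1298 in hippocampus and 37238 in striatum. Over 11 codes the Pearson correlation of log2 Ttr was 0.587 and Spearman's rho was 0.209. Pearson's r was -0.101 (n = 9) without 31-67M and 37-10M, the 2 codes farthest from the median of hippocampal Ttr, which hold the low libraries. Within the 7 codes beginning with 35 Pearson's r was -0.0171. The low libraries were known when the genes were chosen, so these values are a description without a test.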

How the data were processed

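RNA was sequenced from 34 mouse brain libraries with a TruSeq RNA kit, per the labels. The authors deposited 1 table of signal values, which behave as scaled read counts and are not whole numbers, so count tests were not used. The submitters' processing notes list DESeq2 1.26.0, GRCm38, Salmon 1.1.0 and R 3.6.2, with no role or order. Symbols came from GENCODE M21. Genes averaging 10 or more in the libraries compared were tested on log2(value + 1) with limma 3.58.1 in R 4.3.3 (trend, robust, 2-sided), adjusted by Benjamini-Hochberg at 0.05 over all genes tested. HT was compared with WT within each region. The 18 WT libraries were compared between regions with the column code as a random block (correlation 0.0241). Interactions used 6 group means and no block. A fold on this scale understates changes of low genes. Descriptions used scipy 1.17.1, pandas 2.3.3, numpy 2.4.6 and python 3.11.15. The tests were also run on simulated data with independent noise for each gene. Those data held neither low libraries nor genes that move together, so they do not cover the case of the 10 genes. The 10 genes, the gene lists and the motifs were chosen with earlier results of these data known. All 10 genes are named, with the 10 genes most like them and the most abundant 6 or 3 of the other lists. Some genes that this rule names are not reported here. Alternatives were the pseudocount, filter, scaling, blocks, choosing libraries by the first digits of the code, and leaving out libraries. Counting intervals are not given because raw depth is not stated in the sources used here.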

Additional observations from a re-analysis of the deposited data

Results flagged for a closer look

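In groups of 5 or 6 libraries, the gap between an extreme library and its nearest neighbour was set against the whole range on the log2 scale (Dixon's test, 95%). Such a gap is marked by chance in about 0.05 of groups. The rule was run on the 10 genes alone, so the share of all genes it would mark in these libraries is not known. The genes were chosen with these low libraries known and move together, so the libraries named here restate that choice and are given as values, not as a test. In WT hippocampus, replicate 6 was far below the others in 10 of 10 genes: Ttr was at 1298 normalized counts, Enpp2 at 4660, Kl at 613, Prlr at 209 and Clic6 at 100.9. In the same library Otx2 was at 44.1, Kcnj13 at 36.5, Cldn2 at 24.0, Folr1 at 20.0 and Aqp1 at 19.6.

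In HT striatum, replicate 1 was far below the others in 8 genes. Ttr was at 539, Prlr at 357, Kl at 157 and Otx2 at 67.7 there, and Aqp1 was at 14.1, Kcnj13 at 12.9, Cldn2 at 11.7 and Folr1 at 7.50. In HT hippocampus, replicate 1 stood apart for Kcnj13 at 15.2 and Folr1 at 13.4. In PFC the extreme libraries were HT replicate 1 with a high Ttr of 43.5, HT replicate 5 with a high Kl of 81.9 and WT replicate 1 with Cldn2 listed at 0. What set these libraries apart was not tested.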

How the results depend on the processing

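None of the 10 genes passed for HT against WT under any alternative run, and 10 of 10 passed in WT hippocampus and in WT striatum over PFC when any 1 library was left out. Leaving out 1 library at a time moved the number of all genes past the threshold from 0 to between 0 and 4 in hippocampus (4 without HT replicate 1), 0 and 2 in PFC (2 without HT replicate 2) and 0 and 1 in striatum (1 without HT replicate 2). In hippocampus that number was 6 without both low libraries (chosen after seeing the data), 1 with equal library totals, 6 without codes beginning with 31, 2 with codes beginning with 35 alone and 1 with the replicate block. It was 1 in PFC with codes 35 alone, and in striatum 1 without codes 31 and 2 with codes 35 alone. In WT hippocampus over striatum, 2 of the 10 genes passed with a pseudocount of 10, and 0 to 1 when 1 library was left out.

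Replicate numbers did not pair the samples: correlations of same-numbered libraries were -0.044 to 0.065 in hippocampus, 0.001 to 0.101 in PFC, -0.098 to 0.09 in striatum, and -0.065 to 0.119 between WT regions. The replicate block in hippocampus drops WT replicate 6, whose number no HT library has, and all 10 signs turned: Ttr -0.58, Kl -0.047, Folr1 -0.37, Clic6 -0.18, Kcnj13 -0.51, Otx2 -0.14, Enpp2 -0.065, Aqp1 -0.43, Cldn2 -0.46 and Prlr -0.25. In PFC the block gave Enpp2 0.012 and Kcnj13 -0.028, as did leaving out codes 31, and codes 35 alone gave Enpp2 0.079, Kcnj13 -0.0622 and Clic6 0.11. In striatum the signs turned without codes 31 and with codes 35 alone, at 0.13 and 0.31 for Ttr, 0.14 and 0.29 for Kl, 0.24 and 0.44 for Folr1, 0.14 and 0.21 for Clic6, 0.38 and 0.54 for Kcnj13, 0.20 and 0.35 for Otx2, 0.14 and 0.27 for Enpp2, 0.21 and 0.39 for Aqp1, 0.12 and 0.29 for Cldn2, and 0.16 and 0.14 for Prlr. With HT libraries in place of WT, hippocampus over striatum gave Ttr 0.27, Cldn2 0.28, Folr1 0.20 and Kcnj13 0.12.

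When 1 library was left out, hippocampal differences spanned -0.58 to 1.23 for Ttr, -0.047 to 0.68 for Kl, -0.37 to 1.12 for Folr1, -0.18 to 1.08 for Clic6, -0.51 to 1.04 for Kcnj13, -0.14 to 0.87 for Otx2, -0.065 to 0.82 for Enpp2, -0.43 to 1.02 for Aqp1, -0.46 to 0.92 for Cldn2 and -0.25 to 0.84 for Prlr, lowest without WT replicate 6 and highest without HT replicate 1. Striatal ones spanned -1.17 to 0.27 for Ttr, -0.58 to 0.30 for Kl, -0.74 to 0.42 for Folr1, -0.17 to 0.25 for Clic6, -0.61 to 0.49 for Kcnj13, -0.29 to 0.30 for Otx2, -0.30 to 0.26 for Enpp2, -0.68 to 0.33 for Aqp1, -0.75 to 0.29 for Cldn2 and -0.26 to 0.27 for Prlr, highest without HT replicate 1. PFC ones that turned spanned -0.47 to 0.14 for Clic6, -0.077 to 0.012 for Enpp2, -0.0632 to 0.12 for Kcnj13 and -0.11 to 0.37 for Prlr. In WT hippocampus over striatum they spanned -1.05 to 0.061 for Ttr, -0.75 to 0.013 for Aqp1, -0.57 to 0.28 for Cldn2, -0.71 to 0.17 for Folr1, -0.48 to 0.30 for Kcnj13 and -0.046 to 0.44 for Kl. The cause was not tested beyond the libraries named. Raw depth is not known, so values near 0 in PFC carry no counting error.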
